A study of Homo sapiens with 32 samples.

Results

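The aldo-keto reductases of the AKR1C family and 7 widely used target genes of the transcription factor NRF2 were followed in THP-1, an established line of human monocytic leukaemia, through 32 sequencing libraries. The 10 genes were AKR1C1, AKR1C2, AKR1C3, NQO1, HMOX1, GCLM, GCLC, TXNRD1, SRXN1 and SLC7A11. They were taken by symbol from the 60107 genes of the tables, and all 10 were found. They were chosen by the level of AKR1C2, which was already known to be low in KO and HA cells. AKR1C2 in those lines is therefore described here without a test. The question was whether the other genes differed between the lines as AKR1C2 did.

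ACLY, the enzyme that makes cytosolic acetyl-CoA from citrate, was the gene altered in these cells. The 4 lines were KO, the ACLY knockout, and its derivatives WT, HA and SA, in which knockout cells had been transduced by lentivirus with wild type, H760A (catalytically inactive) or S455A (not phosphorylated at that serine) ACLY. Each line was left untreated or received 100 ng/ml LPS, a bacterial cell wall component, for 3 hours by the labels, while the treatment paragraph of the methods names a lower dose. Each of the 8 groups had 4 libraries, made from total RNA with a kit that reads the 3′ ends of mRNA. All lines thus carry the knockout, the labels name a single line per genotype, and whether KO cells received a control virus is not given in the sources used here. The study speaks of independent experiments in general, but neither it nor the labels say of these libraries that those of a group came from separate cultures. The p-values therefore measure only the spread between these libraries, which may be technical.

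Levels are normalized counts, reads divided by a library size factor computed over all 32 libraries. Between 6504099 and 14750815 reads fell on genes per library (median 10247620.5). The cells carried monocyte genes, with 12 of 12 markers past the count filter, whereas 13 of 15 markers of other cells stayed below it, with the T cell gene CD3E at 0 in every library. The ACLY transcript had means of 102 ± 11.4 (SD, n = 4) in WT, 88.5 ± 17.4 in KO, 96.7 ± 28.9 in HA and 143 ± 27.8 in SA without LPS, with ranges that overlapped WT. After LPS the KO libraries again overlapped WT, whereas HA, at 60.3 to 88.3, lay below WT, at 97.1 to 124. KO was thus not told from WT by this reading of the 3′ end, which gave no check of the genotype. SA LPS replicate 1 stood apart. Its mean correlation with the rest of its group was 0.795, against 0.901 or more for the other 31 libraries, and the results it bears on most are given with and without it.

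NRF2, encoded by NFE2L2, is a transcription factor that KEAP1 holds at low levels by directing it to degradation. Oxidants and reactive aldehydes release it, and with a small MAF partner it then binds antioxidant response elements near genes of detoxification and redox balance. AKR1C enzymes reduce ketosteroids and lipid aldehydes and are among the genes most readily raised by NRF2 in human cells. In myeloid cells NRF2 is known for limiting oxidative and inflammatory damage, and several of its targets also answer to other factors, ATF4 and BACH1 among them.

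The start regions of the genes were read from RefSeq on GRCh38, 250 bases before to 50 after the annotated start. The regions of 8 of the 10 genes were analysed, and those of HMOX1 and SLC7A11 were not analysed here. AKR1C1 and AKR1C2 are shown to let a reader see how alike these paralogs are, and GCLM and TXNRD1 because they carried the core of the antioxidant response element. Capitals mark that core, TGACNNNGC, searched on both strands.
AKR1C1, chr10:4963165-4963464, plus strand: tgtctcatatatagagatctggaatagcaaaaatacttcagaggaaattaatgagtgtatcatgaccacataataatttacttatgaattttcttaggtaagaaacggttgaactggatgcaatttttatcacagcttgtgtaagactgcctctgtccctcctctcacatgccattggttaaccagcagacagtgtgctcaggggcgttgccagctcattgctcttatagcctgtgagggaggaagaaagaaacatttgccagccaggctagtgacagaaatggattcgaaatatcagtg
AKR1C2, chr10:5003808-5004107, minus strand: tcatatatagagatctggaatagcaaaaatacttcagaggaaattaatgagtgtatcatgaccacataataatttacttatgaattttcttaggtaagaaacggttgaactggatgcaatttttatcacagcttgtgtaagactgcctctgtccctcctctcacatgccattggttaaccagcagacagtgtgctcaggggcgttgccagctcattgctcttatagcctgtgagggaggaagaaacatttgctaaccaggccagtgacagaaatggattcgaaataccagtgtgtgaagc
GCLM, chr1:93909381-93909680, minus strand: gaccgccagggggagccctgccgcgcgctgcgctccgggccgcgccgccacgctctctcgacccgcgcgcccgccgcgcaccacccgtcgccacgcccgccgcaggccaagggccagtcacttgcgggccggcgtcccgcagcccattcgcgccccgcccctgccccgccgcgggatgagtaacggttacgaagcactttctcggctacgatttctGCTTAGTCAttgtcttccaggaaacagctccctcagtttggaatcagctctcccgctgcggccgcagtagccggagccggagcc
TXNRD1, chr12:104215529-104215828, plus strand: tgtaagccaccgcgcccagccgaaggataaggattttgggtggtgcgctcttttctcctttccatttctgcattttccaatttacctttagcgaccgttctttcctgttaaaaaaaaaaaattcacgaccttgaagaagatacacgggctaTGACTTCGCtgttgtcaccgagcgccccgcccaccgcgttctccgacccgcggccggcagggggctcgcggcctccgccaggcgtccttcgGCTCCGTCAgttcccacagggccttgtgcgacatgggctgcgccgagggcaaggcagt

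The AKR1C1 and AKR1C2 regions were identical at 288 of 308 aligned positions (93.5%), and each matched AKR1C3 at 70 to 71% of positions. No core was found in the regions of these 3 genes. In GCLM the match GCTTAGTCA, a core read on the other strand, began 34 bases before the start. In TXNRD1 the matches began 99 and 8 bases before it, and a second annotated start of TXNRD1 had a match 102 bases before it. The core is short, and 4687 of 35116 RefSeq start regions of the same length (13.3%) held it. The AP-1 element TGANTCA, which 7.71% of the regions held, was in none of the 8 genes, and the core matches printed here did not overlap it. These windows cover only the start, and enhancers farther away were not looked at.

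The AKR1C genes lie side by side on chromosome 10 of GRCh38 (GENCODE 44): AKR1C1 (ENSG00000187134) at 4963253 to 4983283 on the plus strand, AKR1C2 (ENSG00000151632) at 4987775 to 5018031 on the minus strand and AKR1C3 (ENSG00000196139) at 5035354 to 5107686 on the plus strand. AKR1C2, a 3-ketosteroid reductase, was measured at 84.5, 76.2, 101 and 58.6 normalized counts in the untreated WT libraries (replicates 1 to 4). Untreated SA libraries held 64.4, 68.7, 46.9 and 71.7. KO libraries held 5.13, 7.41, 0 and 3.68, and HA libraries held 0, 0.798, 1.18 and 0. All KO and HA libraries thus lay below the lowest WT or SA library without LPS, and the HA values rest on 2 reads in all. The KO mean was 4.05 ± 3.11 against 80.0 ± 17.5 in WT (SD, n = 4), 19.7-fold lower.

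After LPS the same order was seen. WT LPS libraries held 76.3, 75.4, 83.2 and 53.9, KO LPS libraries 2.37, 9.51, 2.47 and 2.35, and HA LPS libraries 0, 2.94, 4.95 and 2.57. SA LPS replicate 1 held 3.47 counts, a level like that of KO and HA, and the other 3 SA LPS libraries held 73.8, 72.0 and 54.7. On the log2(normalized count + 1) scale the mean differences from WT were -4.34 (KO) and -5.82 (HA) without LPS and -4.00 and -4.58 with it. These differences move with the number added before taking logs: with 10 in place of 1 they ran from -2.55 to -3.08. In RNA of whole cultures, fewer cells that express a gene and less RNA per cell cannot be told apart.

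**Figure D1:**
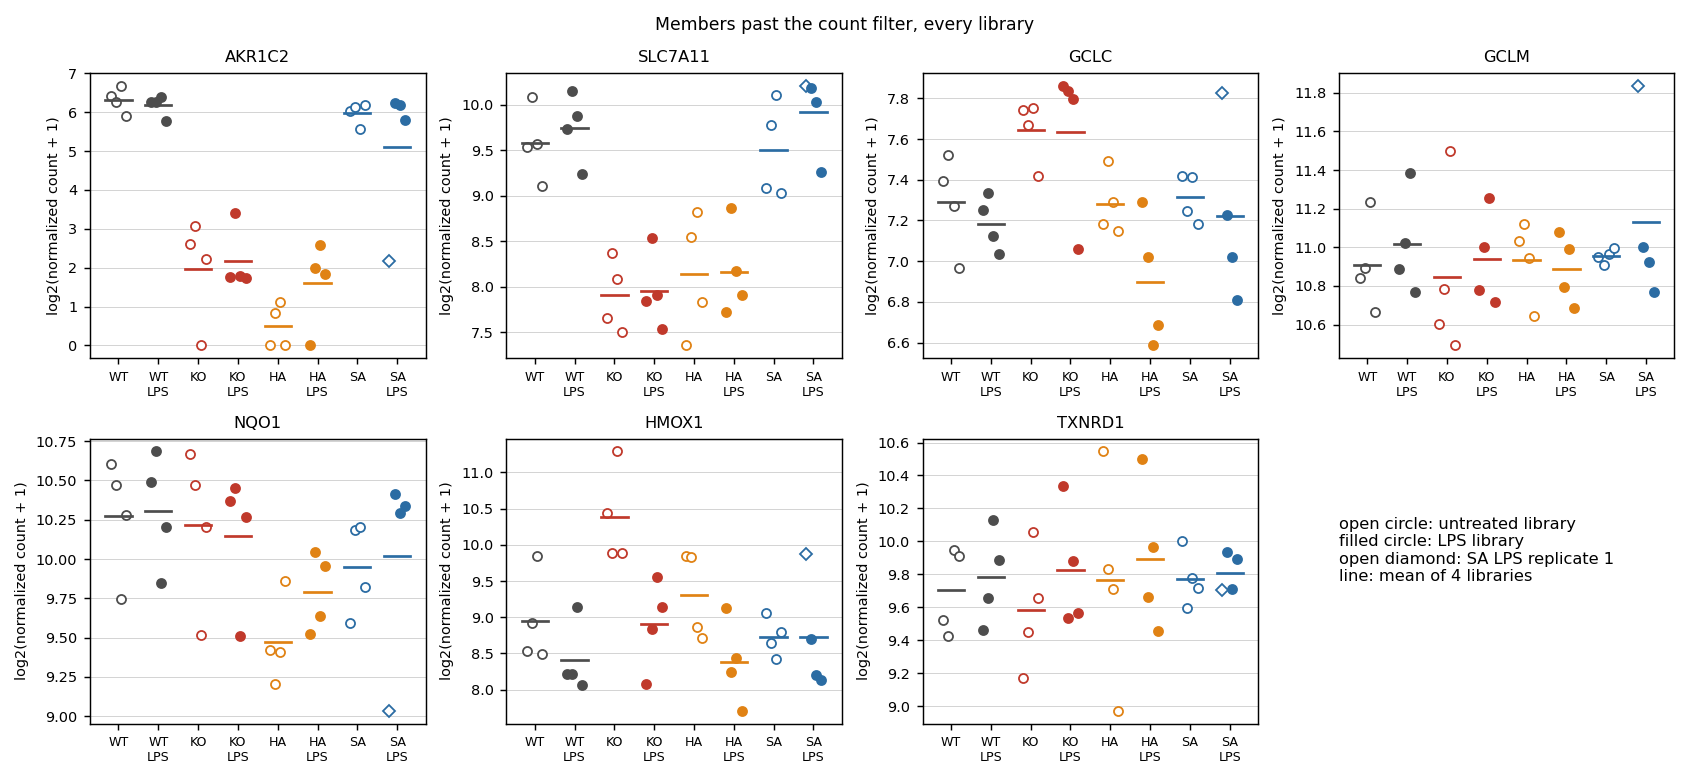
Level of each of the 7 genes past the count filter in every library, as log2(normalized count + 1), by group. Open circles are untreated libraries, filled circles LPS libraries, the diamond is SA LPS replicate 1 and the bar is the mean of 4 libraries. The vertical axes differ between genes and do not start at 0 except for AKR1C2. AKR1C2 and SLC7A11 are lower in every KO and HA library than in every WT library of the same treatment, whereas GCLM and TXNRD1 overlap in all lines.

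AKR1C2 did not pass the test, an adjusted p under 0.01 from limma, between SA and WT or for LPS in WT or SA. In KO and HA it was tested only because WT and SA are high, so its 2 to 15 reads per group there are given as values alone. The SA minus WT difference was -0.33 ± 0.70 (SE) without LPS, with a 95% interval of -1.77 to 1.10, and -1.08 ± 0.70 after LPS. Without SA LPS replicate 1 the latter was -0.10 ± 0.57. These intervals also hold differences of a log2 unit, so they do not show equal levels.

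AKR1C3, a prostaglandin and androgen reductase, was close to the limit of detection, below the mean of 10 counts needed for a test. WT libraries held 14.3, 8.37, 8.96 and 21.9 normalized counts and KO libraries 6.41, 6.35, 0 and 1.84. WT LPS libraries held 10.5, 8.67, 17.6 and 13.5, and KO LPS libraries 4.74, 5.95, 0 and 7.05. Every KO library was thus below every WT library of the same treatment, as for 6.13% (untreated) and 7.21% (LPS) of all genes tested. HA, with 1.02 to 10.6 counts untreated and 4.42 to 12.9 after LPS, overlapped with WT.

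AKR1C1, a 20-alpha-hydroxysteroid dehydrogenase, had at most 3 reads in any library and 0 reads in all libraries of KO after LPS, untreated HA and untreated SA. WT after LPS was the group with a read in each of its 4 libraries, 3, 1, 1 and 2. It did not overlap with KO LPS, at 0 reads throughout, as for 7.21% of all genes tested, which AKR1C1 was not. HA LPS had a single read, in replicate 2, and so met WT LPS at 1 read. As normalized counts, that read was at 0.736 and the lowest WT LPS library at 0.867, a gap that comes from the size factors. These counts are too low for a fold. SRXN1, which repairs over-oxidized peroxiredoxins, had 0 to 7 reads per library and overlapped between each line and WT. A difference in SRXN1 was not detectable at this depth.

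The share of AKR1C2 in the AKR1C reads restates the loss by which the genes were chosen and is given to show what remained. AKR1C2 took 307 of 361 AKR1C reads in untreated WT (85.0%) and 313 of 355 in untreated SA (88.2%), but 15 of 29 in KO (51.7%) and 2 of 26 in HA (7.69%). After LPS it took 83.2% in WT, 88.1% in SA, 45.5% in KO and 21.8% in HA. These are shares of reads, sums over 4 libraries with few reads in KO and HA. Without SA LPS replicate 1 the share in SA after LPS was 88.3%. Reads of the paralogs can be split between them. Of all 75-base windows in the last 300 bases of AKR1C2 transcripts, 51.7% also occurred in AKR1C1 transcripts, whereas 13.1% of AKR1C1 and 15.3% of AKR1C3 windows occurred in another gene. How reads that fit more than 1 gene were counted is not given in the sources used here. The sum of the 3 genes, most of it AKR1C2 in WT and SA, does not change with a split among them. Reads dropped for fitting more than 1 gene, if any were, would be missing from this sum too. The sum was 80.5 to 110 counts in untreated WT, 57.5 to 78.6 in SA, 0 to 14.8 in KO and 1.02 to 10.6 in HA.

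**Figure D2:**
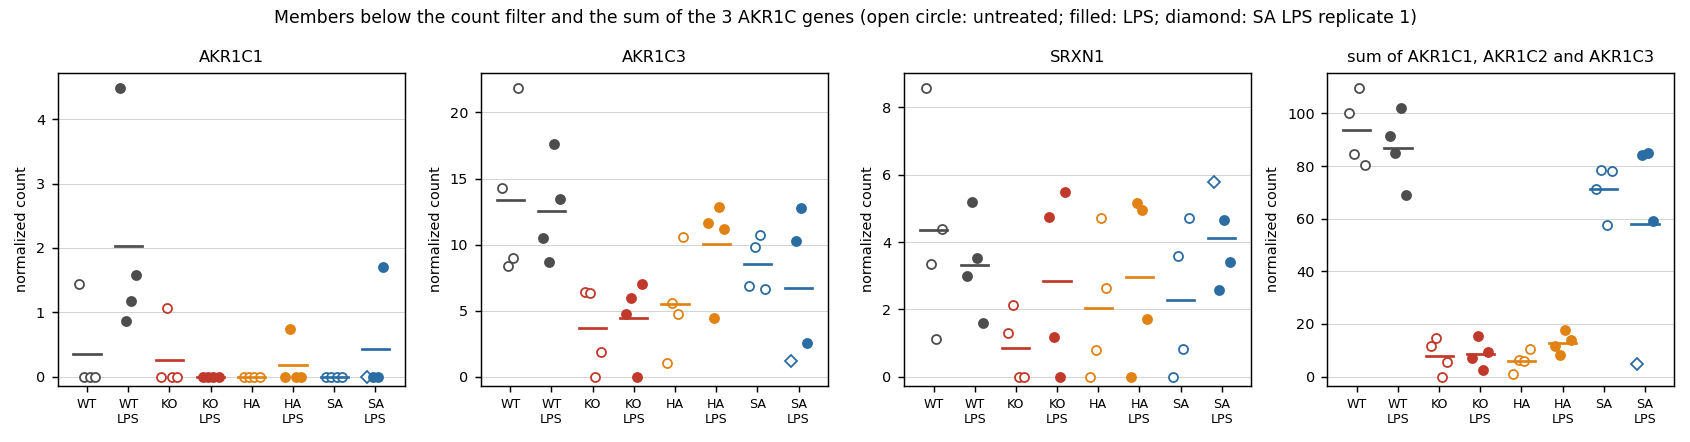
Normalized counts of AKR1C1, AKR1C3 and SRXN1, which lay below the count filter, and the sum of AKR1C1, AKR1C2 and AKR1C3, in every library by group. Open circles are untreated, filled circles LPS, the diamond is SA LPS replicate 1 and the bar is the mean of 4 libraries. The sum, most of it AKR1C2 in WT and SA, follows the AKR1C2 level by which the genes were chosen, while SRXN1 overlaps between each line and WT.

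SLC7A11, the cystine importer xCT that feeds glutathione synthesis (ENSG00000151012; chromosome 4, 138164097 to 138242349, minus strand), was the other gene that was lower in KO and HA cells. Untreated WT libraries held 743, 1086, 760 and 550 normalized counts, KO libraries 201, 329, 270 and 180, HA libraries 163, 373, 451 and 227, and SA libraries 542, 877, 1097 and 522. After LPS the WT libraries held 851, 1132, 939 and 602, KO libraries 228, 371, 238 and 184, HA libraries 210, 464, 287 and 239, and SA libraries 1177, 1165, 1045 and 611. At either treatment every KO and HA library lay below every WT and SA library. Over all genes, 6.13% were lower without overlap in KO than in WT and 8.56% in HA without LPS, and 7.21% and 6.38% after it. Against SA these shares were 5.68% (KO) and 5% (HA) without LPS and 4.09% and 5.21% after it. SA LPS replicate 1, which was KO-like in AKR1C2, had the highest SLC7A11 count of its group.

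The mean of SLC7A11 was 3.20-fold lower in KO than in WT without LPS and 3.45-fold lower after LPS. On the log2 scale the differences were -1.67 ± 0.32 (limma adjusted p = 0.000962, 4 against 4 libraries) and -1.80 ± 0.32 (limma adjusted p = 0.000354). They passed the limit of 0.01 in all 32 fits that left out a library and in all 10 other settings. In these comparisons 360 of 12406 genes (2.9%) and 430 genes (3.47%) passed. SLC7A11 was the only 1 of the 6 genes tested besides AKR1C2 that did.

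In HA the mean of SLC7A11 was 2.59-fold lower than in WT without LPS and 2.94-fold lower after it. The log2 differences were -1.44 ± 0.32 (limma adjusted p = 0.00566) and -1.58 ± 0.32 (limma adjusted p = 0.00256), in comparisons in which 2.52% and 2.02% of all genes passed. These calls were less secure. Without LPS the call was lost when WT replicate 1, 2 or 3 or HA replicate 1 or 4 was left out, with adjusted p-values up to 0.0426 and differences of -1.18 or larger in size. After LPS it was lost without WT LPS replicate 2, HA LPS replicate 1 or HA LPS replicate 4, with adjusted p-values up to 0.0180. In limma fits of the compared groups alone the adjusted p was 0.0178 without LPS and just above the limit after it. With no filter on low counts the untreated call was lost as well (adjusted p = 0.0114).

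SLC7A11 did not pass between SA and WT, with differences of -0.08 ± 0.32 without LPS (limma adjusted p = 0.998, 95% interval -0.73 to 0.58) and 0.17 ± 0.32 after it (limma adjusted p = 0.916, 95% interval -0.49 to 0.83; 0.08 without SA LPS replicate 1). Against SA, it was lower in KO by -1.60 ± 0.32 without LPS (limma adjusted p = 0.00186, 2.86% of genes passing) and -1.97 ± 0.32 after it (limma adjusted p = 0.000169, 2.93% of genes). It was lower in HA by -1.75 ± 0.32 after LPS (limma adjusted p = 0.000919, 2.02% of genes). Without LPS the HA minus SA difference of -1.36 ± 0.32 did not pass (limma adjusted p = 0.0128, 1.5% of genes passing), and it passed without HA replicate 3 or SA LPS replicate 1. The KO minus SA call without LPS was lost without KO replicate 1, KO replicate 4 or SA replicate 3, with adjusted p-values up to 0.0124. All calls against SA were lost in limma fits of the compared groups alone, with adjusted p-values of 0.0156 and 0.0234 for KO and 0.0535 for HA after LPS. Without SA LPS replicate 1 the differences after LPS were -1.87 in KO and -1.66 in HA, and both passed. The comparisons with WT and with SA share the KO or HA libraries. LPS left SLC7A11 within 0.42 of untreated on the log2 scale in each line, and none of these differences passed.

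**Figure D3:**
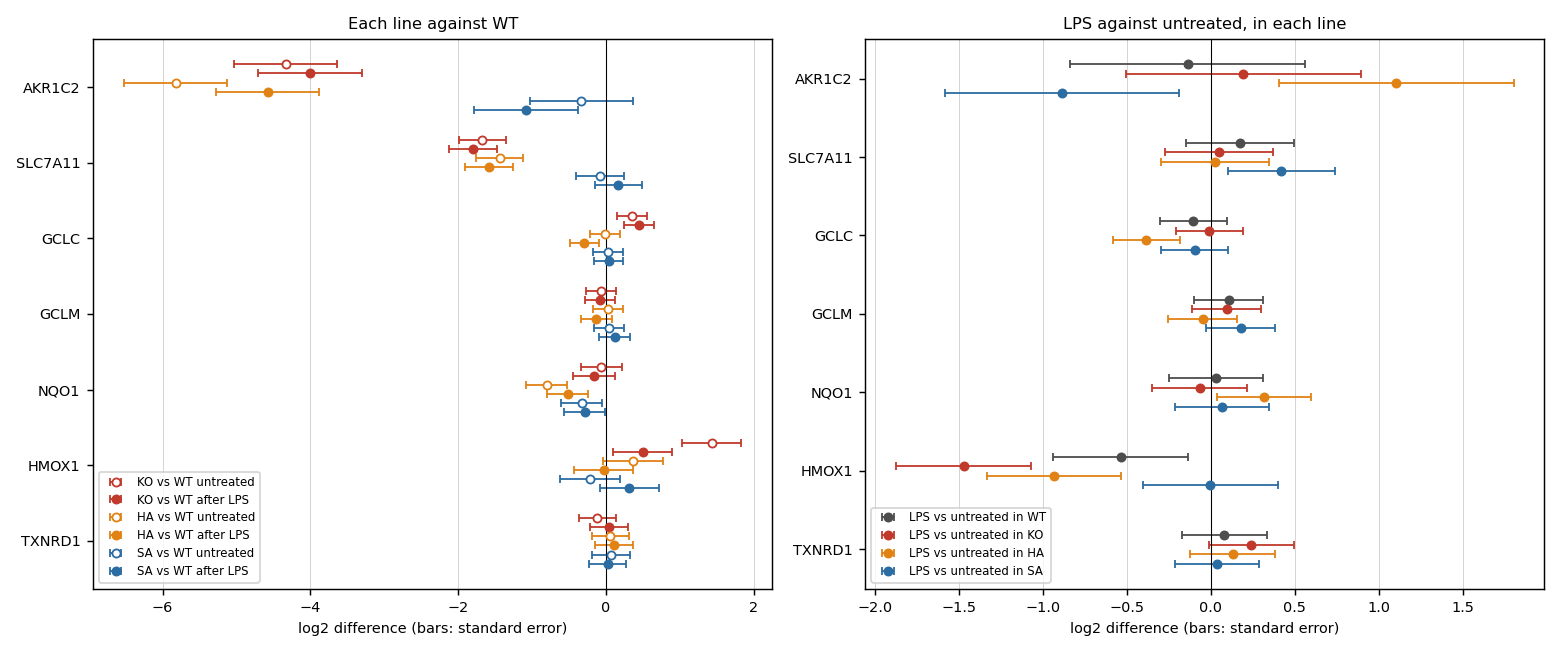
Log2 difference of each of the 7 genes past the count filter, with bars of 1 standard error, for each line against WT (left; open symbols untreated, filled symbols after LPS) and for LPS against untreated in each line (right). AKR1C2 and SLC7A11 lie to the left of 0 for KO and HA, HMOX1 lies at 1.43 for untreated KO, and the differences of GCLM and TXNRD1 lie within 0.13 of 0 against WT.

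Glutathione synthesis itself starts with glutamate-cysteine ligase, made of the catalytic subunit GCLC (ENSG00000001084; chromosome 6, 53497341 to 53616970, minus strand) and the modifier GCLM (ENSG00000023909; chromosome 1, 93885199 to 93909456, minus strand). GCLM was at 1831, 1900, 2408 and 1622 counts in untreated WT, 1555, 1764, 2891 and 1440 in KO, 2090, 2225, 1973 and 1598 in HA and 1976, 1921, 2001 and 2039 in SA. These ranges overlapped. The differences from WT were between -0.13 and 0.12 over both treatments, each with an SE of 0.20. The 95% intervals for KO were -0.48 to 0.36 without LPS and -0.49 to 0.34 after it, so a fall of the size seen for SLC7A11 lies outside them.

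GCLC was at 167, 183, 153 and 124 counts in WT, 213, 202, 215 and 170 in KO, 144, 179, 156 and 141 in HA and 170, 151, 169 and 144 in SA. In KO it was 0.36 ± 0.20 above WT without LPS (limma adjusted p = 0.462) and 0.45 ± 0.20 after it (limma adjusted p = 0.223), and neither passed. In HA it was -0.01 ± 0.20 and -0.29 ± 0.20 from WT. In KO, the GCLC interval without LPS, -0.05 to 0.77, also leaves out a fall of that size.

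TXNRD1 (ENSG00000198431; chromosome 12, 104215779 to 104350307, plus strand), the cytosolic thioredoxin reductase, was at 736, 688, 987 and 962 counts in untreated WT, 577, 700, 1065 and 808 in KO, 1494, 910, 836 and 502 in HA and 1023, 772, 878 and 842 in SA. The lines overlapped, and the differences from WT lay between -0.12 and 0.11, each with an SE of 0.25. Of all libraries, HA replicate 1 was the highest.

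NQO1 (ENSG00000181019; chromosome 16, 69706996 to 69726668, minus strand), a quinone reductase often read as a marker of NRF2 activity, was at 1556, 1419, 857 and 1245 counts in WT, 1628, 1422, 732 and 1177 in KO, 685, 588, 677 and 930 in HA and 773, 1162, 1177 and 903 in SA. KO differed from WT by -0.06 ± 0.28 without LPS (95% interval -0.63 to 0.51) and -0.16 ± 0.28 after it (-0.73 to 0.42). Neither of these passed, and the intervals do not show equal levels. In HA 3 of the 4 untreated libraries lay below all WT libraries, and the fourth lay within their range. The difference was -0.80 ± 0.28 without LPS (limma adjusted p = 0.0802) and -0.52 ± 0.28 after it (limma adjusted p = 0.360), and neither passed.

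HMOX1 (ENSG00000100292; chromosome 22, 35380361 to 35394214, plus strand), haem oxygenase 1, degrades haem to biliverdin, iron and carbon monoxide. Untreated WT libraries held 371, 481, 917 and 358 counts and KO libraries 1391, 950, 2500 and 947, so that every KO library lay above every WT library, as was the case for 5.9% of all genes. The mean was 2.72-fold higher in KO. The log2 difference of 1.43 ± 0.40 did not pass (limma adjusted p = 0.0333). Replicate 3 was the highest in both lines, and same-numbered KO and WT libraries deviated together across genes. Blocking on the replicate number gave a limma adjusted p of 7.62e-05 in a fit of these groups alone, and of 0.0212 in the fit of all groups. Against SA, with 534, 399, 341 and 444 counts, the libraries did not overlap either, as for 5.26% of all genes, and the difference of 1.65 ± 0.40 fell just short of the limit (limma adjusted p = 0.0109). It passed in 6 of the 32 fits with a library left out, SA LPS replicate 1 among them, and in 3 of 10 other settings, in which the adjusted p ran from 0.00673 to 0.103. In HA the difference from WT was 0.37 ± 0.40 (limma adjusted p = 0.580).

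After LPS, KO libraries held 270, 457, 753 and 566 counts of HMOX1 and WT libraries 296, 296, 565 and 267, so the lines overlapped. LPS minus untreated was -1.47 ± 0.40 in KO (limma adjusted p = 0.0929), with no overlap between the groups, as for 1.5% of all genes in that direction. It was -0.54 ± 0.40 in WT, -0.93 ± 0.40 in HA and -0.00 ± 0.40 in SA. None of these passed. Blocking on the replicate number in limma fits of the compared groups alone gave adjusted p-values of 0.00229 in WT and 0.0047 in KO, where same-numbered libraries also deviated together. The KO response minus the WT response was -0.94 ± 0.57 and did not pass, in a comparison in which 0.00806% of genes did.

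Of the 6 genes past the filter besides AKR1C2 none passed for LPS in any line, where 0.25% (WT), 0.58% (KO), 0.403% (HA) and 0.492% (SA) of all genes passed. Limma's unadjusted p was under 0.05 for HMOX1 in KO and HA and for no other of the 6. The share of all genes under 0.05 for LPS is not given here, so this count has no background beside it. Nor did any of the 6 genes pass between SA and WT, where 0% of all genes passed at either treatment. Limma's unadjusted p was under 0.05 there for 445 genes (3.59%) and 646 genes (5.21%). At the same adjusted limit, the study's DESeq2 test called several genes higher in SA than in WT after LPS. It also called more genes than here in KO and HA after LPS, so the 0% belongs to the test used here. In KO against HA, where 0.226% (untreated) and 0.00806% (LPS) of genes passed, none did either. The largest difference there after LPS was that of GCLC, 0.74 ± 0.20 higher in KO (limma adjusted p = 0.123).

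SA LPS replicate 1 was the most divergent library for several of these genes. It had 3649 counts of GCLM against 1745 to 2051 in the rest of its group, 523 of NQO1 against 1253 to 1361, 941 of HMOX1 against 280 to 414, and 329 of ACLY against 95.8 to 110. TXNRD1, at 832 against 838 to 978, and SLC7A11 were near the others. Leaving it out moved the SA minus WT difference after LPS from -0.29 to 0.04 for NQO1 and from 0.32 to -0.07 for HMOX1, and none of the 7 genes passed with or without it.

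Of 12 genes that encode or regulate NRF2, 0 passed against WT in untreated KO, 1 in KO after LPS and 0 in HA or SA. Over all genes tested, 2.9% passed in untreated KO and 3.47% in KO after LPS. In HA 2.52% passed without LPS and 2.02% after it, and in SA 0% at either treatment. NFE2L2, which encodes NRF2, had 786, 968, 933 and 933 counts in WT LPS libraries and 1617, 1683, 1382 and 1378 in KO LPS libraries. It was thus higher in each KO library, as were 6.73% of all genes after LPS without overlap. The difference was 0.74 ± 0.15 (limma adjusted p = 0.00157), lost only without WT LPS replicate 1 among the left-out libraries (adjusted p = 0.0107). HA after LPS was 0.61 ± 0.15 above WT (limma adjusted p = 0.0173) and SA 0.51 ± 0.15 (limma adjusted p = 0.825), and neither passed. SA LPS libraries held 1112 to 1409 counts, beside 786 to 968 in WT LPS libraries. A link between NFE2L2 and AKR1C2 levels was not tested. KEAP1 was at mean counts of 1388 in WT and 1211 in KO, and BACH1, a repressor of HMOX1, at 66.5 and 75.8, and neither passed. MAFF, a small MAF protein named after its values were seen, had means of 7.24 in WT and 31.4 in KO, with a difference of 2.24 ± 0.70 that did not pass (limma adjusted p = 0.0655).

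Glutathione enzymes and transporters, a list of 27 genes with 20 past the filter, had 1 called gene in each of the 4 comparisons of KO and HA with WT, and it was SLC7A11 each time. Over all genes tested, 2.9% (KO) and 2.52% (HA) passed without LPS, and 3.47% and 2.02% after it. The median log2 difference of the list from WT was 0.04 in KO and -0.19 in HA without LPS, and 0.05 and -0.26 after it. Over all genes these medians were -0.03, -0.02, -0.01 and -0.03. SLC3A2, the partner chain of SLC7A11 in the transporter, was 0.12 ± 0.35 (KO) and -0.57 ± 0.35 (HA) from WT without LPS and did not pass. Of 15 thioredoxin and peroxiredoxin genes and 7 NADPH-producing enzymes past the filter, none passed against WT in any line. Of the other aldo-keto reductases, 4 of 13 were past the filter and none passed. Without LPS the differences in KO and HA were 0.78 ± 0.24 and 0.87 ± 0.24 for AKR1A1 (limma adjusted p = 0.0625 and 0.0287), 0.16 ± 0.12 and 0.45 ± 0.12 for AKR7A2 (limma adjusted p = 0.660 and 0.0168), -0.23 ± 0.22 and -0.39 ± 0.22 for AKR1B1 and -0.21 ± 0.15 and -0.17 ± 0.15 for KCNAB2. AKR1B10, another readily induced NRF2 target, had no read in any library.

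A list of quinone, aldehyde and drug-metabolising NRF2 targets had 14 genes past the filter. It also held targets of other roles, TRIM16L among them. Its median log2 difference from WT was -0.06 in KO and -0.32 in HA without LPS, and -0.25 and -0.37 after it. Over all genes these medians were -0.03, -0.02, -0.01 and -0.03. In SA the list median was -0.05 without LPS and -0.11 after it. A shift of the list as a whole was not tested. TRIM16L passed after LPS and was lower in KO and HA. It had 82.3, 91.9, 107 and 81.6 counts in WT LPS libraries, 15.4, 45.2, 44.5 and 36.0 in KO and 20.9, 29.4, 54.5 and 34.3 in HA. KO and HA did not overlap WT, as for 7.21% (KO) and 6.38% (HA) of all genes in that direction. In these comparisons 3.47% (KO) and 2.02% (HA) of all genes passed. The differences were -1.44 ± 0.33 (limma adjusted p = 0.00485) and -1.43 ± 0.33 (limma adjusted p = 0.00808). Without LPS the differences were -1.24 ± 0.33 (limma adjusted p = 0.0208) and -0.82 ± 0.33 (limma adjusted p = 0.124) and did not pass. After LPS the KO call was lost without any one of the WT LPS libraries or KO LPS replicate 1, and the HA call in 19 of the 32 fits that left out a library, with adjusted p up to 0.0420 and 0.0530. The KO call was also lost in 2 of 10 other settings and the HA call in 4, the deposited scale among them.

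Of 10 haem and iron genes past the filter, BLVRA passed in all 4 comparisons and was higher. It encodes biliverdin reductase A, the step after haem oxygenase. Of all genes tested, 2.9% (KO) and 2.52% (HA) passed without LPS, and 3.47% and 2.02% after it. Untreated WT libraries held 354, 276, 484 and 361 counts, KO libraries 919, 724, 845 and 683, and HA libraries 726, 686, 724 and 603, without overlap. Over all genes, 5.9% were higher without overlap in untreated KO, 9% in untreated HA and 7.09% in HA after LPS. The differences in KO were 1.12 ± 0.17 (limma adjusted p = 5.69e-05) without LPS and 1.07 ± 0.17 (limma adjusted p = 8.9e-05) after it. In HA they were 0.92 ± 0.17 (limma adjusted p = 0.00105) and 0.77 ± 0.17 (limma adjusted p = 0.00639). The KO calls held in all 32 fits with a library left out, and the untreated KO call was lost in the fit of the compared groups alone. The HA calls were lost in 2 (untreated) and 3 (LPS) of 10 other settings. The last of the HA calls was lost without WT LPS replicate 1, 2 or 4 or HA LPS replicate 1 or 3 (adjusted p up to 0.0372).

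**Figure D4:**
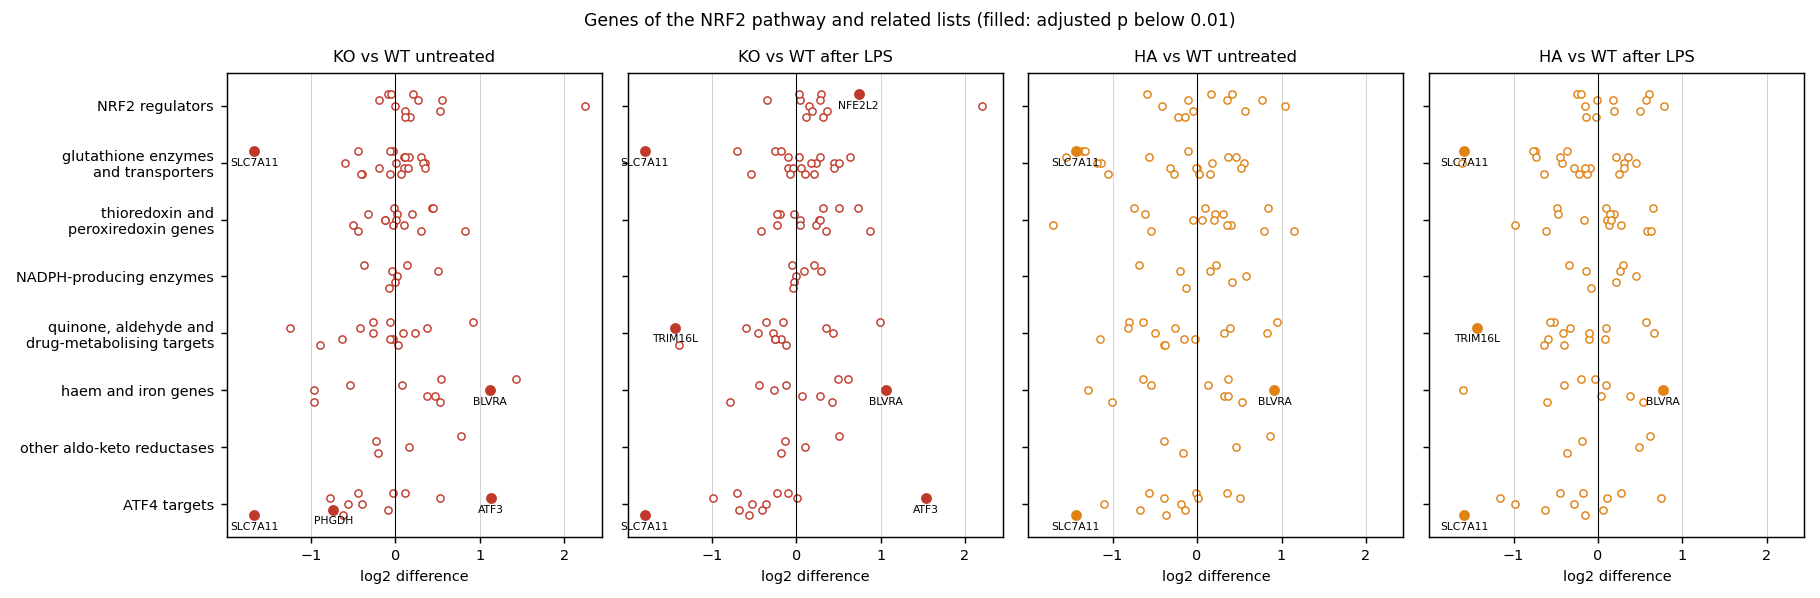
Log2 difference from WT of each gene past the count filter in 8 lists of NRF2-related and neighbouring pathways, for KO and HA with and without LPS. Filled, labelled points passed an adjusted p of 0.01, and open points did not. SLC7A11 (in 2 lists), PHGDH and TRIM16L lie to the left, BLVRA, NFE2L2 and ATF3 to the right, and the far right open point among the regulators in KO is MAFF.

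SLC7A11 is also a target of ATF4, the transcription factor of amino acid shortage and the integrated stress response. A list of 12 genes, SLC7A11, ATF4 itself and further ATF4 targets, was therefore followed. In untreated KO 3 of the 12 passed, SLC7A11 and PHGDH lower and ATF3 higher, beside 2.9% of all genes. In KO after LPS SLC7A11 and ATF3 passed, beside 3.47% of all genes. In HA SLC7A11 was the single call at either treatment, where 2.52% (untreated) and 2.02% (LPS) of all genes passed. PHGDH, the first enzyme of serine synthesis, had 707, 692, 782 and 829 counts in WT and 508, 462, 359 and 490 in KO. The difference was -0.73 ± 0.17 (limma adjusted p = 0.00651). This call was lost in 7 of the fits with a library left out (any WT replicate, or KO replicate 2, 3 or 4), with adjusted p up to 0.0397. The median of the list, which holds SLC7A11 itself, was -0.42 in untreated KO and -0.28 in untreated HA, beside -0.03 and -0.02 over all genes. After LPS it was -0.46 in KO and -0.24 in HA, beside -0.01 and -0.03 over all genes. In SA it was -0.02 without LPS and -0.29 after it, replicate 1 included, beside -0.01 and -0.02 over all genes.

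ATF3, a stress-induced repressor, had 40.1, 62.8, 43.7 and 62.1 counts in WT and 89.8, 125, 131 and 113 in KO. The differences in KO were 1.14 ± 0.21 (limma adjusted p = 0.00078) and, after LPS, 1.54 ± 0.21 (limma adjusted p = 1.13e-05). The untreated call was lost in the fit of the compared groups alone. After LPS, HA was 0.75 ± 0.21 (limma adjusted p = 0.0407) and SA 0.99 ± 0.21 (limma adjusted p = 0.516) above WT, and neither passed. LPS raised ATF3 in WT by 1.10 ± 0.21 (limma adjusted p = 0.00749), a call kept in 20 of 32 fits with a library left out (adjusted p up to 0.0765 in the others, which left out WT replicate 1, 2 or 3, WT LPS replicate 2, 3 or 4, or one of several KO and HA libraries). It rose by 1.51 in KO, 1.85 in HA and 1.95 in SA as well (limma adjusted p = 4.81e-05, 2.99e-06 and 7.32e-07), and in SA by 1.89 without SA LPS replicate 1.

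Of the 12 monocyte markers, 3 passed in untreated KO, 2 in KO after LPS, 1 in untreated HA and 3 in HA after LPS, some up and some down. Over all genes tested, 2.9%, 3.47%, 2.52% and 2.02% passed in these comparisons. The sum of the 12 markers was 15682 to 17205 counts in WT, 15241 to 16323 in SA, 28756 to 39429 in KO and 26320 to 31477 in HA without LPS. After LPS it was 13933 to 16694, 15384 to 16390, 28529 to 44870 and 26533 to 31271. Most of the gap was LYZ, the lysozyme gene: without it the sums were 10876 to 12571 in WT, 8828 to 12956 in SA, 12486 to 17798 in KO and 12531 to 16052 in HA without LPS. LYZ was higher in KO by 1.89 ± 0.34 (limma adjusted p = 0.000425) and in HA by 1.62 ± 0.34 (limma adjusted p = 0.0032) without LPS. The HA call was lost without WT replicate 3 or 4 or HA replicate 3 or 4 (adjusted p up to 0.0149). It was also lost with a replicate block in the fit of the compared groups alone. CD14, an LPS co-receptor, was higher in untreated KO by 1.66 ± 0.26 (limma adjusted p = 6.54e-05) and lower in HA after LPS by -1.37 ± 0.26 (limma adjusted p = 0.00113). CD33 was lower in KO after LPS by -0.73 (limma adjusted p = 0.00474) and ITGAM, an integrin chain, lower in HA after LPS by -1.41 (limma adjusted p = 0.00264). With a library left out the CD33 call was lost in 6 fits (any WT LPS library, KO LPS replicate 1 or 4), with adjusted p up to 0.0254. The ITGAM call was lost in 4 such fits (WT LPS replicate 1 or 4, HA LPS replicate 1 or 3), with adjusted p up to 0.0198. Both were also lost in fits of the compared groups alone, ITGAM with a replicate block there too. The CD14 call in HA was lost in 3 of 10 other settings. Markers of other cells gave sums of 2484 to 2997 in WT and 3947 to 6169 in KO without LPS, nearly all of it PECAM1, which monocytes also carry, and 9 of the 15 stayed below 3 counts in every library. The part of these markers' cells or cell states in the levels of AKR1C2 and SLC7A11 was not tested.

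To see which genes followed AKR1C2 most closely, the 8 group means of log2(normalized count + 1) of every gene tested were correlated with those of AKR1C2. The 8 points share lines, treatment and size factors, so the order is a description. The 5 highest of 12405 genes were ALOX5AP (r = 0.994), BEX3 (0.991), CHAF1B (0.991), DSG2 (0.990) and ADAT2 (0.990). ALOX5AP, which presents arachidonic acid to 5-lipoxygenase, had means of 939 ± 142 (SD, n = 4) in WT, 353 ± 126 in KO, 229 ± 70.1 in HA and 854 ± 123 in SA without LPS. SLC7A11 stood at rank 277 with r = 0.924, NQO1 at rank 2521 with 0.617 and GCLM at rank 3583 with 0.466. TXNRD1, GCLC and HMOX1 had values of -0.06, -0.14 and -0.42. The order rests in part on SA LPS replicate 1: without it DSG2 was the only 1 of the 5 still among the 5 highest, ALOX5AP stood at rank 11, CHAF1B at 15, BEX3 at 17 and ADAT2 at 18, and SLC7A11 at rank 206 with r = 0.955.

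**Figure D5:**
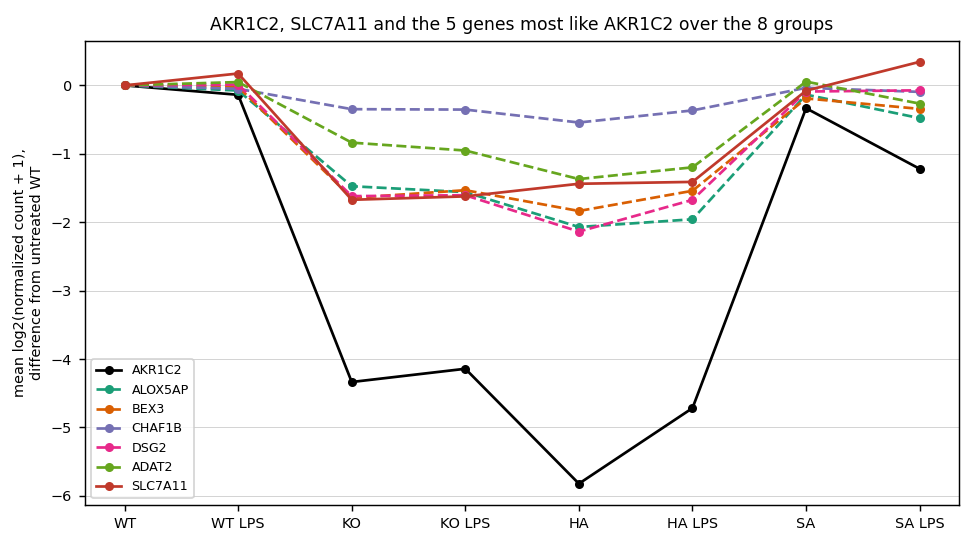
Group mean of log2(normalized count + 1), as the difference from untreated WT, for AKR1C2 (black), SLC7A11 (red) and the 5 genes most like AKR1C2 over the 8 groups. The 5 genes were picked for this pattern, so their lower KO and HA means (CHAF1B -0.35 in untreated KO, AKR1C2 -4.34) are a description, and the AKR1C2 mean of SA after LPS includes replicate 1.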

How the data were processed

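RNA of 32 THP-1 libraries, 4 in each of 8 groups given by the sample titles, was sequenced with QuantSeq 3′ libraries. Per the authors' methods, Bbduk did the trimming, STAR the mapping (build GRCh38) and HTSeq-count the counting per gene, and counts were divided by DESeq2 size factors. Versions, annotation release and use of strand in counting are not given in the sources used here. The deposited values are these normalized counts, with decimal commas, in 8 tables. In every library 100% of values were whole multiples of the worth of a single read (within 0.05 reads), which gave back the reads. The deposited factors equalled median-of-ratios factors computed within each line (0% difference), so the tables of different lines were not on a common scale, and factors over all 32 libraries, which differed by up to 14.3%, were used. The 92 spike-in rows (1 read in all) were left out. Reads are not independent molecules, and counts near 10 carry large counting error.

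Genes with a mean deposited count of at least 10 (12406 of 60107) entered a model with a mean per group on log2(normalized count + 1), in limma (version 3.58.1, R 4.3.3), eBayes with a trend and Benjamini-Hochberg adjustment over all genes tested in each of 19 comparisons. The limit was an adjusted p of 0.01, and adjusted p-values in the text are from this fit. Log2 differences understate changes of low genes. The fit was tested on simulated data. Within groups, pairs of libraries differed by a chi-square of 4.74 to 291 a gene, so none was a copy.

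Genes named are the 10 genes, ACLY, up to 2 called genes per direction of each list against WT and for LPS in WT, and the 5 genes most like AKR1C2. KEAP1, BACH1, MAFF, SLC3A2, AKR1A1, AKR1B1, AKR7A2 and KCNAB2 were named after their values were seen. The genes and lists were chosen with earlier results of these data known. Same-numbered libraries deviated together (every r above 0.1) for KO with WT without LPS (0.33 to 0.68) and after it (0.18 to 0.72), and for LPS in WT (0.26 to 0.68) and KO (0.12 to 0.67), but not in the other comparisons. The labels do not state what a number shares. Alternatives were the deposited scale, TMM factors, pseudocounts of 0.5 and 10, no filter, fits of the compared groups alone, replicate blocks and leaving out each library, and, added after seeing the data, a block within the compared lines, voom weights, and likeness and marker sums without SA LPS replicate 1 or LYZ. Start regions of 8 of the 10 genes are from RefSeq on GRCh38.p14, those of HMOX1 and SLC7A11 were not analysed here, and positions are from GENCODE 44, in which 56104 of the gene identifiers were found. Transcript windows were read from GENCODE 44.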

Additional observations from a re-analysis of the deposited data

Results flagged for a closer look

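In the 56 sets of 4 libraries formed by the 7 genes past the filter and the 8 groups, 5 held a library whose gap to its nearest neighbour was above Dixon's 95% critical share of the whole range, where chance gives about 1 in 20. AKR1C2 in KO LPS replicate 2 was at 9.51 normalized counts, above the other 3 libraries, which lay between 2.35 and 2.47 and rest on 2 or 3 reads each. NQO1 in SA LPS replicate 1 was at 523, below the others, and GCLM in the same library was at 3649, above the others. HMOX1 in WT LPS replicate 3 was at 565, above the others of its group, and replicate 3 was also the highest of untreated WT and KO. GCLC in KO LPS replicate 4 was at 132, below the other 3, which lay between 221 and 231.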

How the results depend on the processing

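Counts of called genes are given among the 6 genes tested besides AKR1C2 (7 where AKR1C2 chose nothing). Directions of the calls held under every setting run. In KO against WT the count of 1 became 2 without LPS with a replicate block in fits of the compared groups or of the compared lines (HMOX1), and 2 after LPS without a filter on low counts, which adds the low genes to those tested (AKR1C1, 7 reads against 0). In HA against WT without LPS the count of 1 became 0 with no filter, in fits of the compared groups alone and with a replicate block in those fits, and ran from 0 to 1 over left-out libraries. After LPS it became 0 in fits of the compared groups alone, with or without the replicate block, and ran from 0 to 1. In KO against SA without LPS the count of 1 became 2 with pseudocount 10, with a replicate block in the fit of all groups and with voom weights, became 0 in fits of the compared groups alone, with or without the block, and ran from 0 to 2 over left-out libraries. After LPS it became 0 in fits of the compared groups alone, with or without the block, in KO against SA and in HA against SA. In HA against SA without LPS the count of 0 became 1 on the deposited scale and with each of the 3 replicate blocks, and ran from 0 to 1. For LPS in WT and in KO the count of 0 became 1 (HMOX1) with a replicate block in fits of the compared groups or lines. The block changed no other count. The cause of these changes was not tested, beyond the fewer libraries in fits of the compared groups. TMM factors and pseudocount 0.5 changed no count. On the deposited scale the median difference over all genes moved to -0.13 for untreated KO, 0.12 for untreated HA and 0.24 for untreated SA against WT, from -0.03, -0.02 and -0.01, and KO against WT had 185 calls up and 184 down in place of 223 and 137, and HA 406 and 97 in place of 176 and 137. After LPS the splits were 222 and 253 in place of 265 and 165 (KO) and 280 and 72 in place of 144 and 106 (HA). Against SA they were 106 and 1028 in place of 200 and 155 for KO without LPS, 121 and 1071 in place of 219 and 144 after it, and, for HA, 68 and 155 in place of 90 and 96 and 91 and 210 in place of 131 and 120. The AKR1C2 differences depend on the pseudocount. Count tests with edgeR and DESeq2 were planned and not run. Depth limits AKR1C1, AKR1C3 and SRXN1, and AKR1C2 in KO and HA, to low read counts per library (at most 25 for AKR1C3).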
